A study of Mus musculus with 6 samples.

Results

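Esrrb, Otp, Car12, Endou and Tmem182 are 5 genes that stood out for their RNA level in MNTB, a relay nucleus of the auditory brainstem, out of 18193 genes with a probe set on Affymetrix mouse expression arrays. They were chosen by the log2 values of these same arrays, because the medial nucleus in the trapezoid body (MNTB) lay above the lateral superior olive (LSO) or the ventral cochlear nucleus (VCN) at 1 age or both, so the differences between MNTB and the other nuclei are given below as a description, with no test. The array holds 11 probe sets that name 1 of these genes and no other, and each gene is represented by its probe set with the highest mean. There was 1 array for each of VCN, LSO and MNTB at postnatal day 3 (P3, before hearing begins) and at postnatal day 14 (P14, shortly after). All mice were untreated C57BL/6J males with no transgene or mutation named in the labels, and each array held RNA from tissue pooled over 6 animals at P3 or over 3 animals at P14. Nuclei were dissected by hand from brainstem slices, so each pool contains neurons, glia, vessels and passing axons, and no combination of nucleus and age was repeated.

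MNTB principal neurons are glycinergic relay cells. Each receives a single giant excitatory terminal, the calyx of Held, from a globular bushy cell of the opposite VCN, and passes the signal on as fast inhibition to the LSO, where the levels of sound at both ears are compared. The 5 genes belong to different molecular classes. Esrrb encodes an orphan nuclear receptor of the estrogen-related receptor family, known for inherited deafness when mutated and for a role in the ion-transporting epithelium of the inner ear. Otp encodes the homeodomain transcription factor orthopedia, needed for the development of neuroendocrine neurons of the hypothalamus. Car12 encodes a membrane-bound carbonic anhydrase whose active site faces the outside of the cell, where it interconverts carbon dioxide and bicarbonate. Endou encodes an endoribonuclease that cuts RNA at uridines, and Tmem182 a claudin-like membrane protein known mainly from muscle.

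The genes lie on different chromosomes in the RefSeq annotation of GRCm38.p6: Esrrb on chr12:86361117-86521628, Otp on chr13:94875636-94885125, Car12 on chr9:66712296-66766845, Endou on chr15:97711015-97731405 and Tmem182 on chr1:40805573-40856887. RefSeq promoter windows, each running from 250 bases before an annotated transcript start to 50 bases from it, were held for 4 of the 5 genes, with 2 starts for Esrrb. They are shown because Esrrb and Otp encode transcription factors, and motifs of their families can be looked for in the windows. The windows were searched on both strands for AAGGTCA, the core motif bound by estrogen-related receptors, and for TAATTA, a core motif of homeodomain proteins. The capital base by itself is the annotated start, at base 251, and a run of capitals is a motif match. All 5 windows are on the plus strand of GRCm38.p6, at chr1:40805351-40805650 for Tmem182, chr12:86360867-86361166 and chr12:86421394-86421693 for Esrrb, chr13:94875386-94875685 for Otp and chr9:66713436-66713735 for Car12.
Tmem182: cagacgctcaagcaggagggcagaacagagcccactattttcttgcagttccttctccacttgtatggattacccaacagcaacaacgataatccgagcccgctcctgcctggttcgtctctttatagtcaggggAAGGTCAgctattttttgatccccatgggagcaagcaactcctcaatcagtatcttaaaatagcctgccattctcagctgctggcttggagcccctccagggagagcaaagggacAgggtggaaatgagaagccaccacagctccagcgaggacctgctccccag
Esrrb, first start: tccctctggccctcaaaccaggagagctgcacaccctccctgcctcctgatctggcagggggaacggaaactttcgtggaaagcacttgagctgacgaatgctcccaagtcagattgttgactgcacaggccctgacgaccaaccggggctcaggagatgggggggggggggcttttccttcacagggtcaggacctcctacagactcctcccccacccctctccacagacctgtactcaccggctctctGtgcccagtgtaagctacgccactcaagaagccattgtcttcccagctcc
Esrrb, second start: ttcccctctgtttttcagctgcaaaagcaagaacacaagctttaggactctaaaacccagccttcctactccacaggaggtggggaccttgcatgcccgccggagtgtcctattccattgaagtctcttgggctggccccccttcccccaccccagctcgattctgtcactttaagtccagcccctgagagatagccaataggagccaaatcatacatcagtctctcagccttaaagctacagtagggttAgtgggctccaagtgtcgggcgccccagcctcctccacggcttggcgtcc
Otp: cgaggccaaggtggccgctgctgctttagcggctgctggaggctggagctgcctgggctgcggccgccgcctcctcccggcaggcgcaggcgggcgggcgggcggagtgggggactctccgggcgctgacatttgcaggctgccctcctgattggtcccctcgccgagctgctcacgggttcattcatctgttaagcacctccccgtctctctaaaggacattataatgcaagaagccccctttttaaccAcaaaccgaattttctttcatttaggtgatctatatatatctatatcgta
Car12: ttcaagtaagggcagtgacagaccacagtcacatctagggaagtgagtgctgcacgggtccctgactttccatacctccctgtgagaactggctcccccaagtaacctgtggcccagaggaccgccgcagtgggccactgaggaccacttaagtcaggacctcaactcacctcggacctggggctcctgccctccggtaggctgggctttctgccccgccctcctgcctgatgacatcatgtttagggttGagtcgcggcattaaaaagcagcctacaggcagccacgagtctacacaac

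AAGGTCA occurred in 1 of the 5 windows, that of Tmem182, where the match begins 115 bases before the start, and 4.72% of all 32851 mouse promoter windows of this length hold it. TAATTA occurred in none of the 5, against 5.29% of all windows. The Otp window held 20 CpG dinucleotides, a number reached by 26.5% of all windows, whereas the other windows held 6 to 9, near the median of 7. A match describes the letters of the window and shows no binding, and the arrays do not tell the starts of Esrrb apart.

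The deposited values were log2 expression values made by RMA. Array medians were 6.27 to 6.31 log2 units. Control probe sets for the bacterial trpn transcript lay between 2.84 and 4.42, and a value in or near that range is treated here as close to background. The difference between the 3' and 5' Gapdh control sets, which follows RNA quality, was 1.21 to 1.41 at P3 and 1.06 to 1.11 at P14, so it went with age, as pool size did. MNTB and VCN could be recognised by their neurons. Slc6a5, the glycine transporter gene of glycinergic neurons, read 12.50 in MNTB at P3 against 11.30 in LSO and 10.89 in VCN, and 13.02 against 12.22 and 10.74 at P14. Atoh7 is a transcription factor gene of VCN bushy cells. At P3 and P14 it read 9.46 and 11.07 in VCN, 5.92 and 7.93 in LSO, and 6.28 and 6.29 in MNTB.

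Esrrb was high in MNTB at both ages and in VCN at P14 only. At P3 the arrays gave 5.03 log2 units in VCN, 6.11 in LSO and 8.20 in MNTB, and those of P14 gave 7.93, 6.24 and 8.54. The MNTB arrays and the VCN array of P14 therefore form the upper group, and both LSO arrays lay between that group and the VCN array of P3. In order from the highest, the gaps after VCN at P14 (1.68) and after LSO at P3 (1.08) exceeded 0.91, the SD of a difference between 2 arrays in the fit described below, and the other gaps did not. That SD comes from the same 6 values, which also chose the gene, so it serves as a yardstick and not as a test, here and for the other genes. In a pooled tissue, fewer cells that use a gene and less of its RNA per cell cannot be told apart, here and for every gene below.

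Otp was close to the background range in VCN and above it in both nuclei of the superior olive. Its values at P3 were 4.71 in VCN, 8.22 in LSO and 9.72 in MNTB, and at P14 they were 4.88, 6.04 and 7.74. MNTB was the highest nucleus at each age, LSO the second and VCN the lowest. The LSO value of P3 was above the MNTB value of P14, but by 0.48, which is within the SD of a difference of 0.78. The values of VCN at the 2 ages, 0.17 apart, did not differ beyond that spread either.

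Car12 stood out on a single array. At P3 it read 5.40 in VCN, 5.10 in LSO and 5.71 in MNTB, and at P14 5.33, 5.16 and 7.40. The MNTB array of P14 lay 1.70 above the next one, and the other 5 arrays spanned 5.10 to 5.71, with no gap between neighbours beyond the SD of a difference of 0.61, to which the high array itself contributes.

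Endou was high in MNTB before the other nuclei. At P3 it read 6.95 in MNTB, whereas VCN at 4.60 and LSO at 4.45 lay next to the background range. At P14 the 3 nuclei read 6.54 in VCN, 7.22 in LSO and 6.72 in MNTB, so MNTB was no longer the highest. The 4 upper arrays, MNTB at both ages and the other nuclei at P14, had no gap above the SD of a difference of 0.92, and the gap below them was 1.94.

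Tmem182 was lowest in LSO at P3 and highest in MNTB at P14. The P3 values were 6.43 in VCN, 4.44 in LSO and 6.30 in MNTB, and the P14 values 6.72, 7.31 and 8.06. Only the gap of 1.86 between LSO at P3, which lay next to the background range, and the remaining arrays exceeded the SD of a difference of 0.78.

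**Figure D1:**
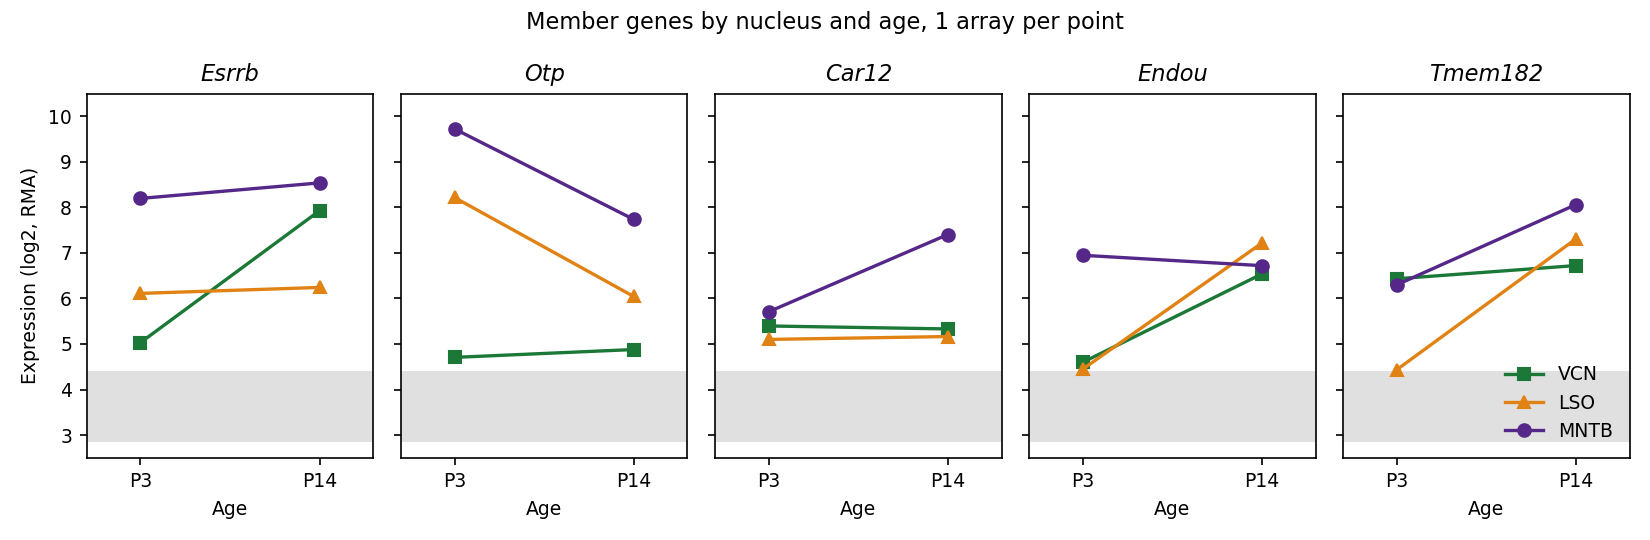
Log2 expression (y axis) at P3 and P14 (x axis) for Esrrb, Otp, Car12, Endou and Tmem182, with 1 array per point, lines joining the ages of a nucleus and a grey band for the trpn control sets (2.84 to 4.42). MNTB is the top line at both ages for Esrrb, Otp and Car12, LSO is above it for Endou at P14 (7.22 against 6.72), and VCN is above it for Tmem182 at P3 (6.43 against 6.30).

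The excess of MNTB over the higher of LSO and VCN shows how far each gene fits the name MNTB-enriched at each age. Otp exceeded both other nuclei by 1.51 log2 units at P3 (2.84-fold) and by 1.69 at P14 (3.23-fold). Esrrb did so by 2.09 at P3 (4.25-fold) and by 0.61 at P14, where VCN had come close. Car12 had 0.31 at P3 and 2.07 at P14 (4.21-fold). Endou had 2.35 at P3 (5.10-fold) and -0.50 at P14, and Tmem182 had -0.13 at P3 and 0.75 at P14. For Endou at P14 and for Tmem182 at P3 the data thus go against the name.

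An excess of at least 1 log2 unit was reached by Esrrb, Otp and Endou at P3, where 0.224% of the 12958 genes tested reached it, by Otp and Car12 at P14 (0.147% of genes), and by Otp alone among the 5 at both ages (0.0309%). As these differences chose the genes, nothing is read from those shares. Ranked by excess among the genes tested, Endou, Esrrb and Otp took places 2, 3 and 6 at P3, and Car12 and Otp places 2 and 5 at P14. Car12 was among the genes tested only through its MNTB array of P14 (mean 5.34 without it), the array that also gives it this place. By the smaller excess of both ages Otp took place 1, Esrrb 21, Car12 78, Tmem182 4951 and Endou 11073. The genes after Otp in that order were Bmp5, a bone morphogenetic protein ligand (smaller excess 1.45), Enpep, aminopeptidase A (1.16), the galactosyltransferase gene B3galt2 (1.07), the mitochondrial carbonic anhydrase gene Car5b (0.89), the matrix protein gene Crtac1 (0.88), the cytokine signalling inhibitor gene Cish (0.84), the protocadherin gene Pcdh8 (0.84), the forkhead factor gene Foxp1 (0.84) and Slc6a5 (0.80).

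**Figure D2:**
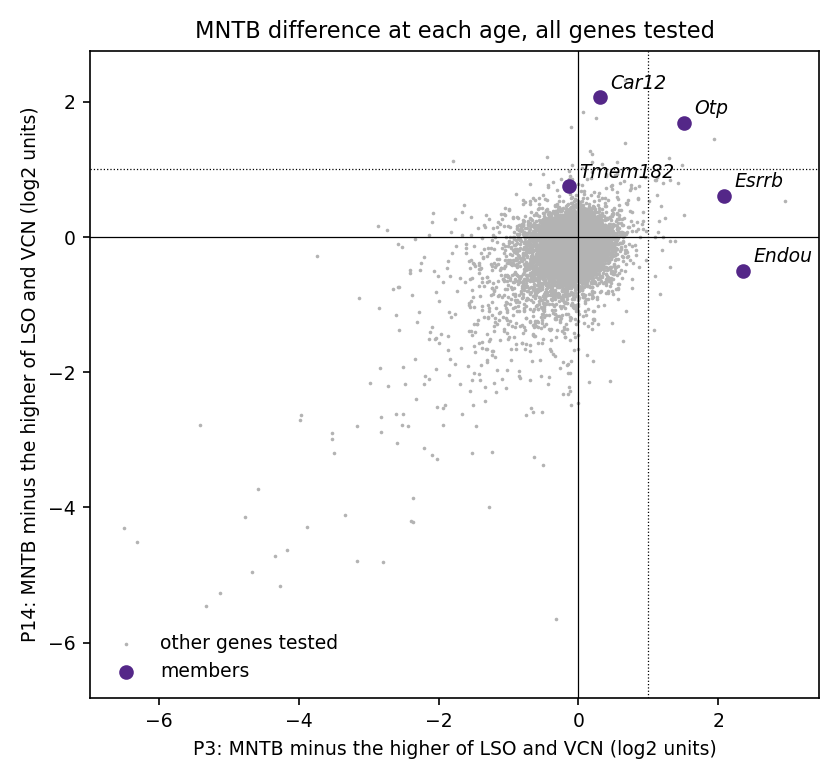
MNTB minus the higher of LSO and VCN at P3 (x axis) and at P14 (y axis), in log2 units, for every gene tested (grey) and the 5 genes (purple), with solid lines at 0 and dotted lines at 1. Otp is the only one of the 5 beyond both dotted lines, at 1.51 and 1.69, while Endou (2.35 and -0.50) lies at the right and Car12 (0.31 and 2.07) at the top.

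Whether the genes changed between P3 and P14 was asked with limma over all 12958 genes tested, with nucleus and age as additive terms over the 6 arrays and adjustment after Benjamini and Hochberg. The spread in this test comes from the disagreement of the nuclei about the age change. The comparison of ages is not the one that chose the genes, but both share that spread. The choice was also made at each age apart. Endou had an MNTB excess of 2.35 at P3 and -0.50 at P14, and Car12 0.31 and 2.07. Values that chose such genes also make up their age changes, so the age p-values are not free of the choice. Of the 5 genes 1 passed at 0.05, against 41.0% of all genes tested in either direction, 23.4% higher and 17.7% lower at P14.

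Tmem182 rose by 1.64 ± 0.45 log2 units (SE, 3 nuclei, limma adjusted p = 0.0311), and was higher at P14 in 3 of 3 nuclei. By nucleus the rise came to 0.29 (VCN), 2.87 (LSO) and 1.76 (MNTB). It did not pass without either LSO array (1.03, adjusted p = 0.101 and 0.1) or without either MNTB array (1.58, adjusted p = 0.107 and 0.105), and over its 14 alternatives the adjusted p ran from 0.00219 to 0.107.

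Otp had a difference of -1.33 ± 0.45 (adjusted p = 0.0603) that did not pass. The values per nucleus were -2.17 in LSO, -1.99 in MNTB and 0.17 in VCN, which was near background at both ages. Without either VCN array the difference was -2.08 (adjusted p = 0.000515 without that of P3 and 0.000471 without that of P14; 0.000471 to 0.447 over 14 alternatives). Leaving out 1 array of a nucleus takes its age change out of the estimate, so that value describes LSO and MNTB alone.

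Endou had a difference of 1.49 ± 0.53 (adjusted p = 0.0689), made of 1.94 in VCN, 2.77 in LSO and -0.23 in MNTB. On the VCN and LSO arrays alone it was 2.35, with the same value without either MNTB array. The low VCN and LSO values of P3 also gave Endou its MNTB excess at that age, and so helped to choose it. That value is therefore a description, and no test is read from it.

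Esrrb had 1.12 ± 0.53 (adjusted p = 0.14), of which VCN gave 2.90, LSO 0.13 and MNTB 0.34, and without either VCN array the value was 0.24 (adjusted p = 0.259 and 0.275; 0.105 to 0.347 over 13 alternatives). Car12 had 0.56 ± 0.35 (adjusted p = 0.243), with -0.07 in VCN, 0.06 in LSO and 1.70 in MNTB. On the VCN and LSO arrays alone, or without either MNTB array, it was at -0.000782, and its adjusted p over 13 alternatives ran from 0.116 to 0.998. The genes thus differed in the nucleus with the largest age change: VCN for Esrrb, LSO for Endou, Tmem182 and, downwards, Otp, and MNTB for Car12. A rise of over 1 log2 unit with age was seen in VCN for Esrrb and Endou, against 8.62% of all genes tested. In LSO it was seen for Endou and Tmem182 (6.81% of genes), and in MNTB for Car12 and Tmem182 (6.82%). Otp fell by over 1 log2 unit in LSO and MNTB, and the share of all genes with such a fall was not counted. The same arrays chose the genes, some of them for an MNTB difference at 1 age, so nothing is read from those shares. Whether an age change differed between nuclei could not be tested, because 1 array per combination leaves no spread for it.

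VCN and LSO, the nuclei with which MNTB is compared, were set against each other in the same fit. Their difference is also the gap between MNTB minus LSO and MNTB minus VCN, which chose the genes. The p-values below are therefore not free of that choice and serve as a description. None of the 5 genes passed, against 0.370% of all genes tested in limma in either direction and 0.201% lower in VCN (48 genes in all, with 1163 at an unadjusted p under 0.05), and 1 of the 5, Otp, had an unadjusted p under 0.05. Otp was 2.34 ± 0.55 log2 units lower in VCN than in LSO, written as VCN minus LSO of -2.34 (adjusted p = 0.256; 0.00209 to 1 over 14 alternatives). It passed in 1 of those, at -3.46 without the VCN array of P14 (adjusted p = 0.00209). For the other genes VCN minus LSO was 0.30 ± 0.65 (Esrrb), 0.23 ± 0.43 (Car12), -0.26 ± 0.65 (Endou) and 0.70 ± 0.55 (Tmem182), each within 1.5 times its SE. Esrrb passed in 1 alternative, at 1.63 without the VCN array of P3 (adjusted p = 0.0249; 0.0249 to 1 over 13 alternatives), which leaves the comparison to P14, when VCN read 7.93 and LSO 6.24.

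A gene's other probe sets check whether its pattern rests on 1 set of probes. For Esrrb the second probe set read 4.51, 4.97 and 5.13 in VCN, LSO and MNTB at P3, and 5.04, 4.81 and 5.72 at P14. The third read 3.84, 3.83 and 4.63 at P3 and 4.41, 3.48 and 4.98 at P14. Its VCN and LSO values thus lay in the background range at both ages, which limits it as a check. Both had MNTB highest at each age and VCN higher at P14 than at P3, as the main probe set had, and both spanned a smaller range over the arrays (1.20 for the second against 3.51). They differed from it in LSO, whose age change was -0.15 and -0.35 against 0.13, and in the size of the VCN rise, 0.53 and 0.57 against 2.90. Their MNTB excess at P3 was only 0.16 and 0.79 against 2.09, and at P14 it was 0.67 and 0.57 against 0.61. For Endou the second probe set read 5.33, 4.81 and 6.09 at P3 and 5.49, 5.65 and 5.49 at P14, again with MNTB highest at P3 (excess 0.76) and LSO highest at P14. Its age change was 0.16 in VCN against 1.94 on the main probe set and -0.60 in MNTB against -0.23, and its highest array was MNTB at P3 rather than LSO at P14.

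For Otp and Car12 the other probe sets did not show the pattern. The second Otp probe set stayed between 5.71 and 6.08 on all 6 arrays, a range of 0.36 against 5.02 for the main one. The second Car12 probe set read 4.69 in MNTB at P3 and 4.29 at P14, so that its age change there was -0.40 against 1.70, and the third lay between 2.24 and 2.55, below the control sets. Tmem182 had a single probe set. The values of Otp, Car12 and Tmem182 therefore each rest on 1 probe set.

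**Figure D3:**
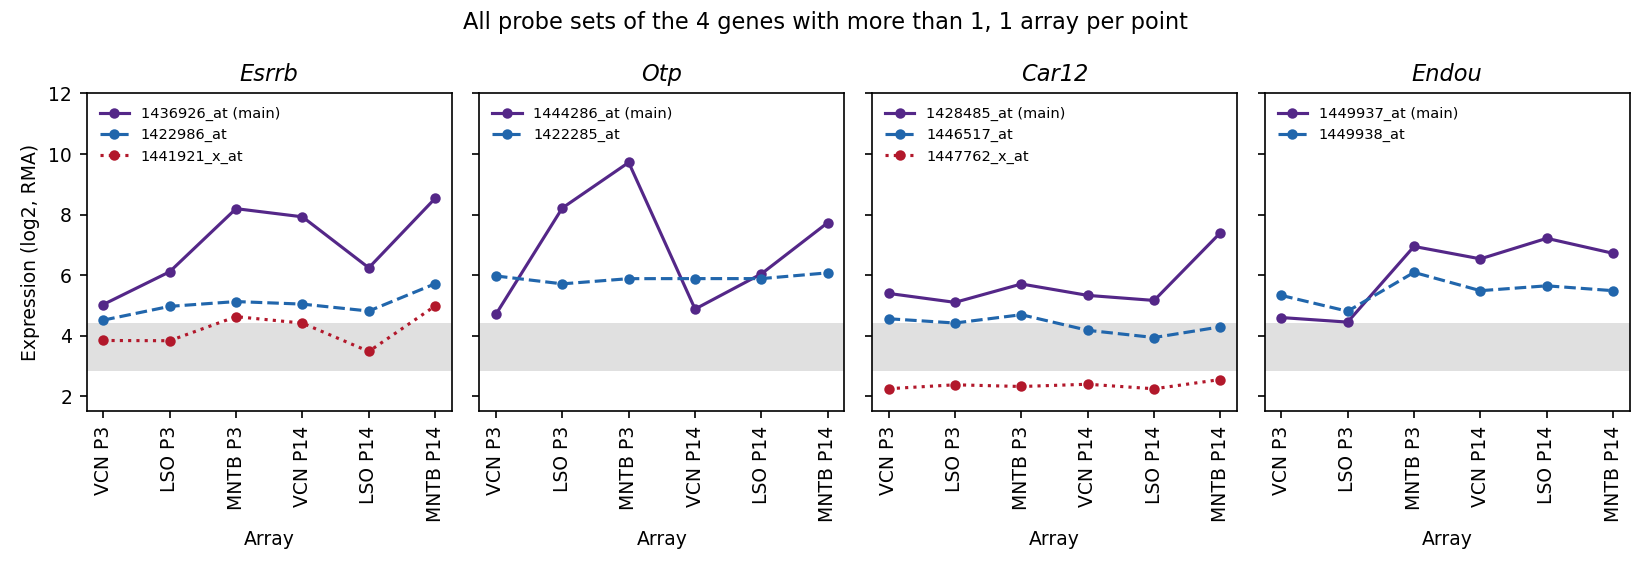
Log2 expression (y axis) on the 6 arrays (x axis, 1 point per array, lines only join the points of a probe set) for every probe set of Esrrb, Otp, Car12 and Endou, with a grey band for the trpn control sets. The other probe sets of Esrrb and Endou share the top nucleus of the main one at each age but span smaller ranges and differ from it in some age changes, and the second one of Otp stays flat between 5.71 and 6.08.

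The genes whose values over the 6 arrays were most like each of the 5 were found by Pearson r, among tested genes that spanned at least 1 log2 unit and peaked on the same array. With 6 points that share nuclei and ages, high values arise easily, and r is given as a description. For Otp they were Gchfr, the feedback regulator of GTP cyclohydrolase (r = 0.995), the serotonin transporter gene Slc6a4 (0.983) and Pcdh8 (0.977), the nearest of 357 candidates. Slc6a4 read 6.26, 8.58 and 9.17 in VCN, LSO and MNTB at P3 and 5.83, 7.12 and 7.92 at P14, and so shares with Otp both the order of nuclei and the lower level at P14 in LSO and MNTB. For Car12 they were Rreb1, a zinc finger factor gene (0.990), the nicotinamide riboside kinase gene Nmrk2 (0.973) and the myoglobin gene Mb (0.962), of which Mb read 7.85 on the MNTB array of P14 and 5.98 to 6.57 on the others.

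For Esrrb the nearest were Crtac1 (0.919), the opsin gene Opn3 (0.915) and Kcnmb2, an auxiliary subunit of BK potassium channels (0.913), and none of 720 candidates reached 0.95. Kcnmb2 shared the high VCN value of P14, with 6.19, 6.27 and 7.46 in VCN, LSO and MNTB at P3 and 7.33, 5.84 and 7.78 at P14. For Endou they were the adaptor protein gene Fyb (0.962), the inositol phosphate kinase gene Itpkb (0.955) and Jade2 (0.954). For Tmem182 they were 4632415L05Rik (0.976), the glycosyltransferase gene B3gnt9 (0.969) and the lipoprotein and reelin receptor gene Vldlr (0.966). Among the 5 genes themselves r ran from -0.243 (Otp and Tmem182) to 0.711 (Endou and Tmem182), so they did not share 1 pattern.

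**Figure D4:**
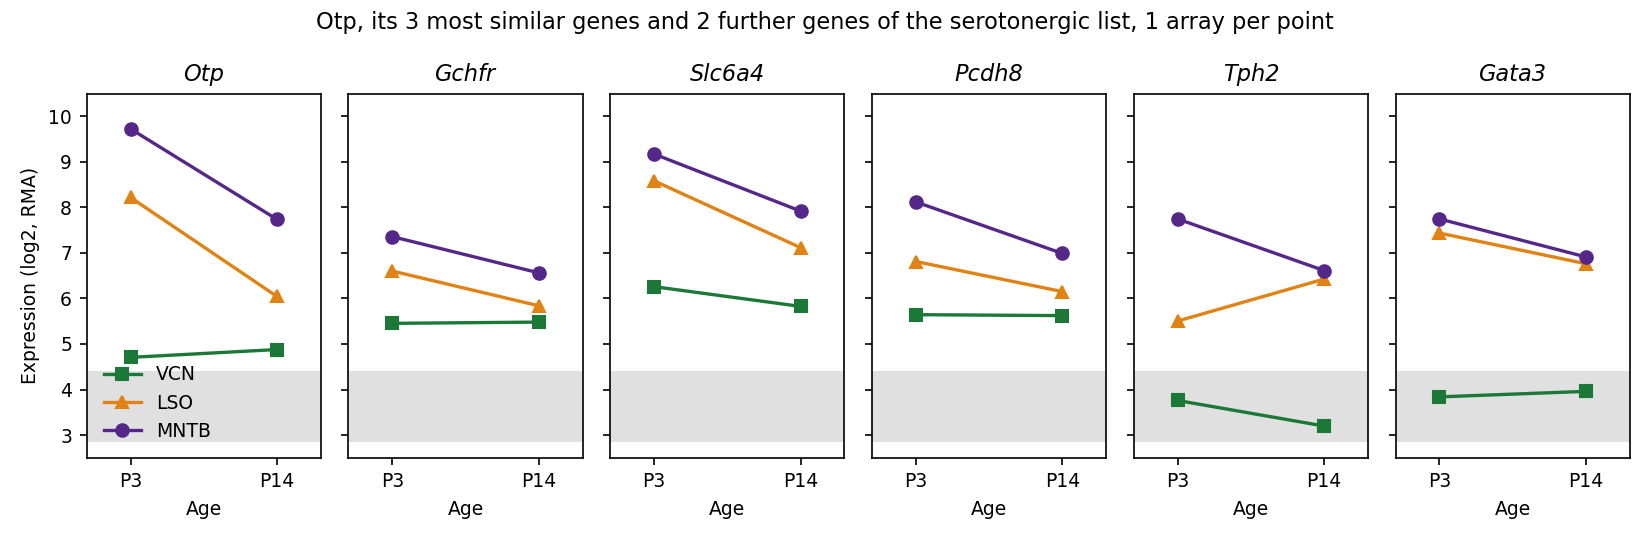
Log2 expression (y axis) at P3 and P14 (x axis) for Otp, the genes most like it (Gchfr, Slc6a4 and Pcdh8) and Tph2 and Gata3 from the list of serotonergic neuron genes, with 1 array per point and a grey band for the trpn control sets. MNTB is the top line and VCN the bottom line in every panel at both ages, and Tph2 differs from Otp in that its LSO value is higher at P14 (6.43) than at P3 (5.50).

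Relatives and partners of each gene were read from lists, each of which includes the gene itself. The counts below stand against 23.4% higher and 17.7% lower at P14 among all genes tested. Among estrogen-related receptors and their coregulators, 2 of 9 tested genes rose with age and none fell, with a median age change of 0.12 against 0.03 over all genes tested, a share near that of all genes. Those were the other receptors of the family, Esrra (0.84 ± 0.18, adjusted p = 0.0149) and Esrrg (0.67, adjusted p = 0.0455). Esrrg read 9.86, 9.68 and 10.04 in VCN, LSO and MNTB at P3 and 11.16, 9.85 and 10.58 at P14, and Esrra 6.11, 6.85 and 6.42 at P3 and 7.39, 7.27 and 7.23 at P14. Besides Esrrb no gene of this list had an MNTB excess of 1 log2 unit at either age, and the coactivator gene Ppargc1a read 11.23 in MNTB at P3 against 10.76 in LSO and 10.61 in VCN.

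Among homeodomain and partner transcription factors of ventral interneurons and hypothalamus, 4 of 10 tested genes fell with age and none rose, against 17.7% lower and 23.4% higher over all genes (median -0.47): Lhx1 by 1.21, Foxp1 by 0.77, Arnt2 by 0.69 and Lhx5 by 0.54. MNTB was the highest nucleus at both ages for 5 of the 10, Otp included, against 12.2% of all genes tested. Lhx5, which specifies early interneurons, had the nuclear order of Otp, with 5.42, 6.24 and 7.05 in VCN, LSO and MNTB at P3 and 5.06, 5.65 and 6.38 at P14. Sim1, which acts beside Otp in hypothalamic development, lay between 2.56 and 2.78 on all arrays, at or below the control sets.

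Of 12 tested carbonic anhydrase genes 4 rose and 2 fell (median 0.34), near the shares of 23.4% and 17.7% over all genes. Car4, a membrane-anchored form of vessels, rose by 1.70 and the membrane-bound Car14 by 1.28, Car3 by 0.61 and the cytosolic Car2 by 0.48, while Car8 and Car11, which lack enzyme activity, fell by 0.98 and 0.37. MNTB was the highest nucleus at both ages for 2 of the 12, Car12 and Car5b, against 12.2% of all genes tested. Car5b read 8.04, 8.02 and 8.99 in VCN, LSO and MNTB at P3 and 6.61, 8.13 and 9.01 at P14. Of 10 bicarbonate transporter and proton exchanger genes 3 rose and 2 fell, again near those shares, led by the anion exchanger gene Slc4a2 at 1.43 and the lactate transporter gene Slc16a1 at 1.42, with a median over the list of 0.14, and none had an MNTB excess of 1 log2 unit at either age.

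Of 9 tested genes in the list of endoribonucleases and RNA uridylation, Rnase4 rose by 0.91, Ang by 0.48 and the exosome nuclease gene Dis3 fell by 0.89 (median 0.20). None but Endou had an MNTB excess of 1 log2 unit. Of 12 tested genes in the list of Tmem182, its claudin superfamily relatives and its partner Itgb1, 6 rose, Tmem182 among them, and 2 fell (median 0.50). The myelin genes Cldn11 and Pmp22 rose by 2.41 and 1.07, and Emp1 and Emp2 fell by 0.93 and 0.88. MNTB was highest at both ages for 3 of the 12, against 12.2% of all genes tested, but for none by 1 log2 unit.

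Markers of other cells moved with some of these values. In the list of serotonergic raphe neurons, which lie near the midline beside MNTB, the mean level over the 9 genes with a probe set was 5.80, 6.85 and 7.28 in VCN, LSO and MNTB at P3 and 6.04, 7.23 and 7.22 at P14. Tph2, the enzyme gene that defines these neurons in the brain, read 3.76, 5.50 and 7.75 at P3 and 3.20, 6.43 and 6.61 at P14, so VCN was in the background range and MNTB the highest at both ages, as for Otp. The list did not share that order as a whole. MNTB was the highest at both ages for 3 of its 8 tested genes (Ddc, Gata3 and Slc6a4), against 12.2% of all genes tested. It was so too for Tph2, which lay below the filter. For Slc18a2, Htr1a, Maob, Gch1 and Lmx1b LSO read higher than MNTB at P14 (8.76 against 8.43 for the vesicular monoamine transporter gene Slc18a2). Gata3, shared with other lineages, passed for VCN minus LSO (adjusted p = 0.0114), with 3.84, 7.44 and 7.75 at P3. The part of such cells in the Otp values was not tested. Of the 8 tested genes of that list 2 rose and 2 fell with age, with a median of 0.27.

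Choroid plexus epithelium is known to express Car12. The mean of the 8 choroid plexus genes was 5.03 in MNTB at P3 and 5.10 at P14, and Ttr, its most abundant transcript, read 6.61 and 6.93 there against 12.58 on the VCN array of P14, where Car12 was at 5.33. The part of such tissue in the Car12 values was not tested. For cholinergic and motor neurons the mean over 7 genes was 7.96 and 7.55 in LSO and 4.87 and 4.64 in MNTB, with the vesicular transporter gene Slc18a3 at 5.46 and 5.17 in MNTB. Means over the cerebellar granule cell genes were 9.36 and 9.86 in VCN and 6.22 and 6.41 in MNTB. With age, 1 of 4 tested cholinergic genes rose and 1 fell, 1 of 6 granule cell genes rose and 1 fell, and neither of the 2 tested choroid plexus genes passed, while 6 of that list's 8 lay below the filter. The VCN array of P14, on which Esrrb and Endou read higher than at P3, also carried the high Ttr value. The choroid plexus list did not move as a whole in VCN. Otx2 read 9.34 there at P3 and 6.52 at P14, and Kcnj13 5.59 and 5.39, while the other genes of the list read higher at P14. Whether the piece of tissue taken for either VCN array bears on Esrrb and Endou was not tested.

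Myelinating oligodendrocyte genes, all 9 of which rose with age, had means of 9.84, 8.05 and 8.31 in VCN, LSO and MNTB at P3 and 12.20, 12.29 and 12.39 at P14. Means of endothelial and pericyte genes lay between 7.88 and 8.21 at P3 and between 9.04 and 9.18 at P14, with 8 of 9 tested genes higher. Means of astrocyte genes were 10.57 to 10.87 at P3 and 11.29 to 11.52 at P14 (5 of 10 rose and 2 fell), of microglial genes 7.48 to 8.01 and 8.29 to 8.52 (5 of 8 rose), and of meningeal genes 5.90 to 6.26 and 7.18 to 7.79 (5 of 6 rose and 1 fell). In each of these glial, vascular and meningeal lists the spread between nuclei at P14 was below 1 log2 unit, and MNTB was the highest at P14 only for the oligodendrocyte list (12.39 against 12.29 in LSO). At P3, when Endou was high in MNTB alone, MNTB had the highest means of the astrocyte, endothelial and microglial lists, within the ranges given. Among the astrocyte genes the filament gene Gfap stood out there, with 11.29 in MNTB at P3 against 10.08 in VCN and 10.06 in LSO (excess 1.21), and 12.05 to 12.40 at P14. The astrocyte list as a whole did not share this, as its median MNTB excess at P3 was 0.01. The median age changes were 3.11 for the oligodendrocyte, 0.95 for the endothelial, 0.25 for the astrocyte, 0.71 for the microglial and 1.44 for the meningeal list. The part of such shifts in cell content in the age values of the 5 genes was not tested. Among the auditory brainstem neuron markers, 5 of 12 tested genes rose with age (median 0.82), led by the parvalbumin gene Pvalb at 3.44 and the low-threshold potassium channel gene Kcna1 at 2.37. Of that list the calbindin gene Calb1 had the MNTB pattern of Car12 at P14, with 11.03 in MNTB, 7.68 in LSO and 8.71 in VCN, but was also highest in MNTB at P3 (8.43 against 7.76 and 7.16).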

How the data were processed

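VCN, LSO and MNTB were measured on 6 Affymetrix arrays, 1 per nucleus and age. The authors deposited log2 expression values made with RMA, per the submitters' processing notes (version not given in the sources used here). Neither scan dates nor batches, nor whether the nuclei came from the same animals, are named there. A gene's probe set of highest mean stood for it, with _x_at sets used only where no other existed. The 12958 genes with a mean of at least 5.57, the 40th percentile over probe sets, were tested with limma 3.58.1 in R 4.3.3: additive age and nucleus, variance trend with intensity, 2 residual degrees of freedom, Benjamini-Hochberg adjustment, threshold 0.05. All 5 genes passed this filter, Car12 (mean 5.68) only through its highest array (5.34 without it). The p-values reflect how well nuclei or ages repeat each other, not how animals vary, and the small number of arrays limits the precision. The steps were tested on simulated data.

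The 5 genes, the lists and the naming rule were chosen with earlier results of these data known, so no list is independent evidence. The rule names the 5 genes, the 3 most like each, the 10 with the largest smaller excess, and up to 4 members a list that passed a test, with markers that define a cell type; others were named after their values were seen. The alternatives were no filter, a 60th percentile filter, centring, quantile normalization, the median over a gene's probe sets, a floor at the 25th percentile (4.47), the VCN and LSO arrays alone, no trend, no nucleus or age term, the mean of LSO and VCN as comparator, and each array left out in turn.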

Additional observations from a re-analysis of the deposited data

Results flagged for a closer look

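For 3 of the 5 genes the age change had opposite signs in different nuclei. The share of all genes tested with such mixed signs was not counted, so nothing is read from this number. Each value is a difference of 2 single arrays, and the difference between nuclei was not tested. Otp changed by 0.17 in VCN, near background at both ages, by -2.17 in LSO and by -1.99 in MNTB. Car12 changed by -0.0651 in VCN, 0.0635 in LSO and 1.70 in MNTB, and Endou by 1.94 in VCN, 2.77 in LSO and -0.23 in MNTB. In each case the sign that stands apart belongs to a value below the residual SD of an array (0.55 for Otp, 0.43 for Car12 and 0.65 for Endou), so the signs themselves are not resolved. For Car12 this holds for both small values.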

How the results depend on the processing

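The calls rest on 6 arrays. Over all genes, 5317 passed for age, but 3138 on the VCN and LSO arrays alone and 3142 to 4710 with 1 array left out; for VCN minus LSO 48 passed, but 29 with the 60th percentile filter, 1 with no age term, and 4 to 159 with 1 array left out. On the VCN and LSO arrays alone the age change of Car12 was -0.000782 and that of Tmem182 1.58 (no longer past the threshold). That of Endou was 2.35, from P3 values that helped to choose the gene, so no call is read from it. Tmem182, at 1.64, also missed the threshold with no nucleus term (limma adjusted p = 0.0622). With 1 array left out, the age change ran from 0.24 to 1.62 for Esrrb, -2.08 to -0.91 for Otp, -0.000782 to 0.88 for Car12, 0.86 to 2.35 for Endou and 1.03 to 2.32 for Tmem182, and VCN minus LSO from -1.03 to 1.63, -3.46 to -1.21, -0.24 to 0.70, -1.22 to 0.69 and -0.31 to 1.72, changing sign for all but Otp. Taking the median over probe sets, the MNTB excess of Esrrb at P3 was 0.16, of Otp 0.84 at P3 and 0.94 at P14, of Endou 1.55 at P3 and of Car12 0.11 at P14. Against the mean of LSO and VCN the excess of Otp was 3.26 at P3 and 2.28 at P14, of Tmem182 0.87 at P3 and of Esrrb 1.45 at P14. Centring, quantile normalization, the floor, no filter and no trend changed no call or sign of the 5 genes. None of the 5 is tested with the 60th percentile filter, and Esrrb and Car12 are not with the median of probe sets. The excess at 1 age was not recomputed with an array left out, as this would only drop a comparator. The age fit compares P14 with P3 within each nucleus, so it is already paired by nucleus, and the fit with no nucleus term is its unpaired form. Values near the control range (VCN for Otp, VCN and LSO at P3 for Endou, LSO at P3 for Tmem182) may understate a difference from them.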
